A study of Mus musculus with 6 samples.

Results

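Foxa2, Sox17, Sox7, Gata4, Gata6, Cubn, Amn, Dab2, Lrp2 and Ttr are genes of the primitive and definitive endoderm, and their RNA levels were examined in Dppa2 knockout embryonic stem cells of the mouse, with and without the return of Dppa2. Dppa2, also called ECAT15-2, is a SAP-domain protein of pluripotent cells. The genes were chosen by name, through the RefSeq accessions of the array's probes, and not by a threshold on their values. They were, however, chosen with earlier results of these data known. The 10 genes had 19 of the 41059 probes used and were 10 of the 18512 gene symbols on the array. Of these, 9 passed the filter for testing, and Ttr did not.

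RNA was measured on 6 Agilent arrays with 1 colour, 2 in each of 3 groups. The Flag-Dppa2 group was 15-2-/-, 15-1CT/CT and carried piggyBac-CAG-Flag15-2-IP, a vector in which the CAG promoter drives Flag-tagged Dppa2. The mock group consisted of the same knockout lines with the empty vector piggyBac-CAG-IP. The wild-type group was 15-1+/+, 15-2+/+ and was not transduced. CT is a conditional targeted allele of ECAT15-1 (Dppa4), the neighbour and paralogue of Dppa2, so both knockout groups differed from wild type at this allele and in the vector as well. All lines were derived from blastocysts, had a mixed 129Sv and C57BL6 background, and were grown on gelatin in serum with LIF. Replicate 1 of both knockout groups was 1 knockout line and replicate 2 another, from a different mother, so a group holds only 2 lines. The wild-type arrays share no more than the mother with the knockout lines of the same number.

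Levels are log2 signals relative to the 75th percentile of the array, so that a negative level lies below it, and the levels of different genes are not comparable. Between 55.9% and 60.4% of probes were well above background per array, and precision is limited by how few arrays there are. Dppa2 had levels of -0.05 and 0.35 in Flag-Dppa2 lines, -2.09 and -2.003 in mock lines, and 2.13 and 2.07 in wild type, so the vector returned part of its level. All 13 embryonic stem cell markers tested were well above background on every array, among 15 listed. The difference between the 2 wild-type arrays was smaller than the scanner's own error. Only 0.480% of 14986 bright spots lay beyond a limit that 5% should pass, against 24.2% between the Flag-Dppa2 arrays and 21.8% between the mock arrays. They were therefore counted as 1 sample in every mean below, with no SD, although the labels describe them as separate lines. The planned fit took them as 2 arrays, and when they were averaged none of 18767 features (0.0%) was called by limma in any of the 3 comparisons. An unadjusted p under 0.05 was then reached by 2280 features (12.1%) in mock against wild type, 1470 (7.83%) in Flag-Dppa2 against mock and 1564 (8.33%) in Flag-Dppa2 against wild type. The calls below, of members and of listed genes alike, come from the planned fit, and all of them are lost with wild type averaged, at adjusted p-values printed beside the members and running from 0.136 to 0.461 for the listed genes. Slide 1 held the wild-type and mock arrays and slide 2 the Flag-Dppa2 arrays alone, so for Flag-Dppa2 the slide and the vector cannot be told apart. The Y-linked genes Eif2s3y and Ddx3y were measurable in wild type and on none of the 4 knockout arrays, so against wild type an effect of sex and one of genotype cannot be told apart. In such bulk RNA, fewer cells of a type and less RNA per cell cannot be told apart.

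The primitive endoderm is the epithelium that forms on the inner face of the inner cell mass and gives rise to the visceral and parietal endoderm of the yolk sac, whereas the definitive endoderm arises at gastrulation and forms the gut. GATA6, GATA4, SOX17 and SOX7 act in the primitive endoderm, with GATA6 the first of them, and FOXA2 and SOX17 are also used by the definitive endoderm. The visceral endoderm takes up maternal nutrients through 2 large receptors of its apical membrane. These are megalin, encoded by Lrp2, and cubilin, encoded by Cubn, which has no membrane anchor of its own and is carried to the surface by amnionless, encoded by Amn. The adaptor DAB2 links megalin to the clathrin coat. Embryonic stem cells that lack Dppa2 have been used to ask which genes depend on it, and the return of Flag-Dppa2 to the same lines asks which of these differences are undone.

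The sequences just upstream of the 4 genes of the endocytic complex are shown because the members with the largest differences were among them, and because they differ widely in CG content. Each window is the 250 bases before an annotated start in RefSeq GRCm38.p6, read 5′ to 3′ on the strand of the gene, with every CG in capitals. The Lrp2 window lies at chr2:69586030-69586279 on the minus strand, the Amn window at chr12:111270846-111271095 on the plus strand and the Cubn window at chr2:13491877-13492126 on the minus strand. Dab2 has 2 annotated starts, with windows at chr15:6299539-6299788 and chr15:6386498-6386747 on the plus strand.
Lrp2 upstream: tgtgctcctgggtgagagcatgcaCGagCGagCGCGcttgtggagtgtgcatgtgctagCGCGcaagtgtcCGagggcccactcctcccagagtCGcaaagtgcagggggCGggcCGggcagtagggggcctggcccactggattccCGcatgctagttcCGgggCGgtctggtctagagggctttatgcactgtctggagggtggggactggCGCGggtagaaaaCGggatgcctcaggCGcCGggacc
Amn upstream: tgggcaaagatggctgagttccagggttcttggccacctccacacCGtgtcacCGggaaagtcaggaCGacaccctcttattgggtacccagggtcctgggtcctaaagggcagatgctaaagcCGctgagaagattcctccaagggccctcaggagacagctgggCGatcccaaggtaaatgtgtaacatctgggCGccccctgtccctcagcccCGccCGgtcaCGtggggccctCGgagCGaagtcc
Cubn upstream: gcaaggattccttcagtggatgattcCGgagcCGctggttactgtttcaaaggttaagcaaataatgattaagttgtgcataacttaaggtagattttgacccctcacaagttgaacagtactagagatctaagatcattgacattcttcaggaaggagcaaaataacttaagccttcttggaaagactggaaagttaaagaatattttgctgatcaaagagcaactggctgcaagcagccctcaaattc
Dab2 first start: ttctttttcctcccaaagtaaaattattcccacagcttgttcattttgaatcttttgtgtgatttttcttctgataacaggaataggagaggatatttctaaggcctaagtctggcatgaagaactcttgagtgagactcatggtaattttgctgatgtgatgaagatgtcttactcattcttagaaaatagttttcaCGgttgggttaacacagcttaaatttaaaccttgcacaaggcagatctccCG
Dab2 second start: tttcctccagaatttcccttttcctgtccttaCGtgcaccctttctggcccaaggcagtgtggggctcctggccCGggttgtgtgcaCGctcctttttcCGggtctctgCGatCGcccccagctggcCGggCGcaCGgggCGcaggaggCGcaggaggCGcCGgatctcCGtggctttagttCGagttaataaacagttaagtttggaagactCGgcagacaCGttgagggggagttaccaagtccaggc
The Lrp2 window held 18 CG and the Amn window 11, and the Cubn window held 2. At Dab2 the first start had 2 CG and the second 17, against a median of 6 over 32851 windows of the same length. GC content was 66.4% upstream of Lrp2, 61.2% upstream of Amn and 39.6% upstream of Cubn, against a median of 52.4%. The letters GATAA, the only motif searched and a common core of GATA factor sites, were looked for on both strands. They occurred in 22.6% of all windows and in 2 of the 8 windows of members, namely 1 of 2 starts of Dab2 (the first) and 1 of 3 starts of Foxa2. A match of letters is a description of the window and not a binding site. The other members are not described by a window here.

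The endocytic receptor genes were lower in mock lines than in wild type on every array. Lrp2, the megalin receptor, and Amn, the cubilin chaperone, fell by the test, and Lrp2 rose again with Flag-Dppa2. Cubn and Dab2 were lowest in mock lines as well, without passing it. These were 2 of the 9 members called in mock against wild type, both lower, where 6.12% of all features tested were called, 2.47% higher and 3.65% lower. In Flag-Dppa2 against mock 1 of the 9 was called, where 0.741% of features were called, 0.703% higher and 0.0373% lower. In Flag-Dppa2 against wild type none of the 9 was called, where 0.533% of features were called, 0.144% higher and 0.389% lower. There 4 of them, Foxa2, Gata4, Cubn and Amn, had an unadjusted p under 0.05, where 21.6% of all features did. With wild type averaged only Foxa2 and Gata4 did (unadjusted p = 0.0126 and 0.0258, limma). Gata4 was well above background on the knockout arrays alone and passed the filter only through them.

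Lrp2 had levels of 2.17 and 2.05 in Flag-Dppa2 lines, 0.09 and 0.44 in mock lines, and 2.48 and 2.45 in wild type. The mock arrays were the low ones, and no group overlapped another. The mean level was 2.11 ± 0.08 in Flag-Dppa2 lines and 0.27 ± 0.25 in mock lines (SD, n = 2 each), and 2.46 in wild type. Megalin mRNA was 4.58-fold lower in mock lines than in wild type (log2 difference -2.20, SE 0.15, limma adjusted p = 0.0103). With the replicate number as a block the adjusted p was 0.0319, and with wild type averaged it was 0.151. In a fit of only these groups, both on slide 1, it was 0.029, and 0.128 with the block added to that fit. Flag-Dppa2 lines were 3.59-fold higher than mock lines (log2 difference 1.84, SE 0.15, limma adjusted p = 0.032). The sign was the same in both lines, by 2.07 in line 1 and 1.61 in line 2. That call was lost with the replicate block (adjusted p = 0.0868), with wild type averaged (0.203) and without mock replicate 1 (0.0691). Flag-Dppa2 and wild type differed by -0.35 (SE 0.15, adjusted p = 0.273).

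Lrp2 was the member with the most probes, and they can be set against each other. A second probe had levels of 1.44 and 1.34 in Flag-Dppa2 lines, -0.40 and 0.08 in mock lines, and 1.83 and 1.83 in wild type. Another had -3.92 and -3.83 in Flag-Dppa2 lines, -5.64 and -5.23 in mock lines, and -3.03 and -3.31 in wild type, and mock replicate 1 was not well above background for it. The fourth was not well above background on any array. The 3 measurable probes gave mock against wild type differences of -2.20, -1.99 and -2.26, each called when all probes were tested (limma adjusted p = 0.0108, 0.0186 and 0.0154). Their Flag-Dppa2 against mock differences were 1.84, 1.56 and 1.56, with adjusted p of 0.0375, 0.0741 and 0.0764. The probes thus gave the same direction in each comparison, and only the brightest passed the test in the second.

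Amn had levels of -1.41 and -1.65 in Flag-Dppa2 lines, -3.23 and -4.04 in mock lines, and -0.62 and -0.59 in wild type. Its order was mock lowest, Flag-Dppa2 between and wild type highest, with no overlap between groups. The means were -1.53 ± 0.17 in Flag-Dppa2 lines and -3.63 ± 0.57 in mock lines (SD, n = 2 each), and -0.60 in wild type. The Amn transcript was 8.17-fold lower in mock lines than in wild type (log2 difference -3.03, SE 0.30, limma adjusted p = 0.0195). The difference was smaller with normexp background correction, at -2.07 (adjusted p = 0.0104). The adjusted p was 0.0344 with the replicate block and 0.192 with wild type averaged. It was 0.0445 in a fit of only these groups, and 0.1425 with the block added to that fit. Flag-Dppa2 lines exceeded mock lines 4.29-fold (log2 difference 2.10, SE 0.30, adjusted p = 0.0864), by 1.82 in line 1 and 2.38 in line 2, which did not pass the test. Flag-Dppa2 and wild type differed by -0.93 (SE 0.30, adjusted p = 0.187).

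Cubn, the receptor that Amn carries to the surface, had levels of -1.02 and -2.19 in Flag-Dppa2 lines, -4.38 and -5.03 in mock lines, and -3.01 and -3.24 in wild type. Flag-Dppa2 lines were the highest here, and no groups overlapped. The difference of mock from wild type was -1.58 (SE 0.47, adjusted p = 0.124) and that of Flag-Dppa2 from mock 3.101 (SE 0.47, adjusted p = 0.099). This 8.58-fold value was the greatest of any member between Flag-Dppa2 and mock lines, with 3.36 in line 1 and 2.84 in line 2. With normexp correction these differences were -0.67 for mock against wild type and 1.81 for Flag-Dppa2 against mock. Flag-Dppa2 and wild type differed by 1.52 (adjusted p = 0.177).

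Dab2, the adaptor, had levels of -1.70 and -2.80 in Flag-Dppa2 lines, -4.94 and -4.58 in mock lines, and -2.51 and -2.59 in wild type. Both mock arrays were below all others, while the wild-type arrays lay between the 2 Flag-Dppa2 arrays. Mock lines differed from wild type by -2.21 (SE 0.40, limma adjusted p = 0.0541). This passed in a fit of only these groups (adjusted p = 0.0293), which leaves the spread of the Flag-Dppa2 arrays out. It did not pass with the replicate block added to that fit (0.1315) or with wild type averaged (0.339). Flag-Dppa2 against mock gave 2.51 (SE 0.40, adjusted p = 0.105), with 3.23 in line 1 and 1.78 in line 2. Flag-Dppa2 and wild type differed by 0.30 (adjusted p = 0.708). With normexp correction mock against wild type was -1.11 and Flag-Dppa2 against mock 1.44. A second Dab2 probe was not well above background on any array.

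**Figure D1:**
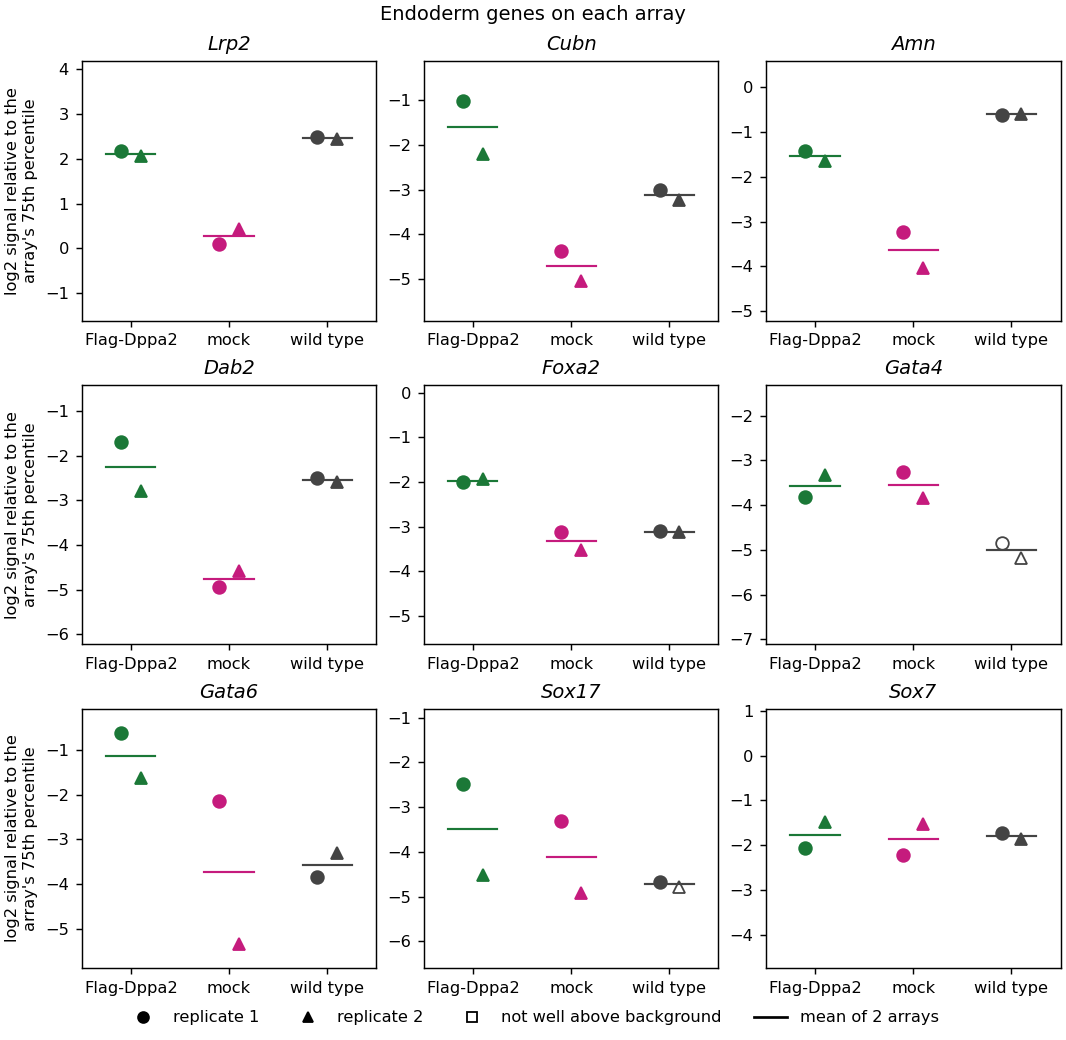
Levels of the 9 tested endoderm genes on each array (log2 signal relative to the 75th percentile), for Flag-Dppa2, mock and wild type from left to right. Circles are replicate 1, triangles replicate 2, open symbols are not well above background and lines are means of the 2 arrays. Lrp2 and Amn were lowest in mock lines, at 0.09 and 0.44 for Lrp2, and the 2 Gata6 arrays of the mock group lie far apart, at -2.14 and -5.33.

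No listed gene of the wider endocytic apparatus was called. Of 30 listed partners of clathrin-mediated uptake and recycling, all 30 were tested and none was called in any of the 3 comparisons. Of all features 6.12% were called in mock against wild type, 0.741% in Flag-Dppa2 against mock and 0.533% in Flag-Dppa2 against wild type. Few calls were therefore due among 30 genes, and their absence decides little. Mock lines lay above wild type without overlap for 10 of the 30, where 37.2% of all features did, and below for 9, where 28.6% did. The median log2 difference of the partners was 0.04 for mock against wild type, where the median of all features was 0.05. For Flag-Dppa2 against mock it was 0.02, where that of all features was -0.01. The lowest values in mock against wild type were those of Clcn5, a chloride and proton exchanger of endosomes, at -1.38, and Fcgrt, the neonatal Fc receptor, at -0.96. Neither passed the test. Fcgrt was below wild type in line 1 only, with levels of -3.58 and -1.27 in mock lines and -1.48 and -1.44 in wild type.

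Marker RNAs of other cell types also differed between the groups. Of 14 fibroblast markers 12 were tested, with a median log2 difference of -2.76 in mock against wild type, and 4 were called lower. The median was -1.93 in line 1 and -3.34 in line 2, and it was -0.78 with normexp background correction. Mmp2, a gelatinase, was 19.4-fold lower there (log2 difference -4.28, limma adjusted p = 0.00645) and was higher in Flag-Dppa2 than in mock lines (log2 difference 3.91, adjusted p = 0.0166). Loxl1, a collagen cross-linking enzyme, Twist2, a mesenchymal factor, and Fbn1, a microfibril protein, were not well above background in mock lines and were at least 8.59-fold, 4.10-fold and 3.53-fold lower there than in wild type (limma adjusted p = 0.00565, 0.00489 and 0.00899). Loxl1 and Fbn1 were called higher in Flag-Dppa2 than in mock lines, at least 2.24-fold and 2.05-fold (adjusted p = 0.0264 and 0.029). Under the replicate block Mmp2, Fbn1 and Loxl1 did not pass in that comparison (adjusted p = 0.0573, 0.0666 and 0.0839). Loxl1 and Twist2 were called lower in Flag-Dppa2 lines than in wild type (adjusted p = 0.0473 and 0.0165, and 0.106 and 0.0752 with the block). Twist2 was well above background on the wild-type arrays alone and passed the filter only through them. Its calls against wild type were therefore favoured by the filter. The summed level of the list was 3.56 and 3.23 in Flag-Dppa2 lines, 2.81 and 2.73 in mock lines, and 6.77 and 7.11 in wild type, in units of the 75th percentile and added over probes of unequal brightness. Lum and Fap were not well above background on any array. Of the markers, 10 and 8 were above background on the Flag-Dppa2 arrays, 8 and 6 on the mock arrays, and 11 and 12 on the wild-type arrays. By its median and its sum the fibroblast list was thus lowest in mock lines and highest in wild type, as Amn and Lrp2 were. Most of the rise of the sum from mock to Flag-Dppa2 lines came from Mmp2. Flag-Dppa2 lines lay above mock lines without overlap for 3 of the 12, where 18.1% of all features did, and below for none. Thy1 and Pdgfrb were lower with Flag-Dppa2 than with the empty vector in both lines. The part of this list in the differences of Amn and Lrp2 was not tested.

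Of the transcription factors, none was called in any comparison. Foxa2, a forkhead factor of both endoderms, had levels of -2.005 and -1.93 in Flag-Dppa2 lines, -3.13 and -3.53 in mock lines, and -3.11 and -3.11 in wild type. The Flag-Dppa2 arrays were above all others, and mock and wild type were close. Flag-Dppa2 against mock gave 1.36 (SE 0.16, adjusted p = 0.0669), with 1.12 in line 1 and 1.59 in line 2. Flag-Dppa2 against wild type gave 1.14 (SE 0.16, adjusted p = 0.0715), and mock against wild type -0.22 (adjusted p = 0.444). With quantile normalization the values of Flag-Dppa2 passed, at an adjusted p of 0.0485 against mock and 0.0472 against wild type. With the replicate block they did not, at an adjusted p of 0.129 and 0.119, nor with wild type averaged, at 0.293 and 0.543.

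Gata4, a zinc-finger factor of the primitive endoderm, had levels of -3.82 and -3.33 in Flag-Dppa2 lines, -3.25 and -3.84 in mock lines, and -4.86 and -5.18 in wild type. Neither wild-type array was well above background, so the wild-type values are bounds. The gene passed the filter only through the knockout arrays, so its comparisons with wild type were favoured by the filter. Both knockout groups exceeded wild type, and they overlapped each other. Mock lines were at least 2.38-fold higher than wild type (fitted difference 1.47, adjusted p = 0.0642) and Flag-Dppa2 lines at least 2.34-fold higher (fitted difference 1.44, adjusted p = 0.104). The bound sets the mean of the brighter group against the lowest signal well above background on each wild-type array, or against the probe's own signal where that was higher. Mock against wild type passed the test under quantile normalization (difference 1.69, adjusted p = 0.0431), and with normexp correction the difference was 0.68 (0.0750). It did not pass with the replicate block (adjusted p = 0.0954), with wild type averaged (0.350) or with no filter on dim probes (0.129). Flag-Dppa2 and mock differed by -0.03 (adjusted p = 0.987). A second Gata4 probe was not well above background on any array.

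Gata6, which acts before Gata4 in this lineage, differed more between the lines with the empty vector than any other member. Its levels were -0.62 and -1.64 in Flag-Dppa2 lines, -2.14 and -5.33 in mock lines, and -3.83 and -3.30 in wild type. The wild-type arrays lay between the 2 mock arrays, and both Flag-Dppa2 arrays were above all others. Line 1 was 9.12-fold higher than line 2 with the empty vector and 2.03-fold higher with Flag-Dppa2. Flag-Dppa2 against mock was 2.61 (SE 1.14, adjusted p = 0.441), Flag-Dppa2 against wild type 2.44 (adjusted p = 0.307), and mock against wild type was -0.17 (SE 1.14, adjusted p = 0.936). The standard error exceeded the difference from wild type in mock lines. With normexp correction Flag-Dppa2 against mock was 1.49 and against wild type 1.68. Of its 2 further probes, one was above background on 1 array alone, Flag-Dppa2 replicate 1, and the other on none.

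Sox17, an endoderm factor of the SoxF group, had levels of -2.48 and -4.52 in Flag-Dppa2 lines, -3.32 and -4.92 in mock lines, and -4.67 and -4.79 in wild type, where replicate 2 was not well above background. Line 1 was the high one in both knockout groups, 4.10-fold over line 2 with Flag-Dppa2 and 3.03-fold with the empty vector. Flag-Dppa2 against mock was 0.62 (adjusted p = 0.853) and mock against wild type 0.61 (SE 0.88, adjusted p = 0.694). A second Sox17 probe was well above background on both Flag-Dppa2 arrays and on mock replicate 1 only, at -2.15 and -4.13 in Flag-Dppa2 lines and -2.96 in that mock line. It too was higher in line 1.

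Sox7, the other SoxF factor of the primitive endoderm, had levels of -2.06 and -1.48 in Flag-Dppa2 lines, -2.23 and -1.52 in mock lines, and -1.72 and -1.86 in wild type. All groups overlapped. The differences were 0.11 for Flag-Dppa2 against mock (adjusted p = 0.942), -0.09 for mock against wild type (0.887) and 0.02 for Flag-Dppa2 against wild type (0.979). Ttr, which encodes the thyroxine carrier transthyretin secreted by visceral endoderm, was not well above background on any array and gives no level here.

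**Figure D2:**
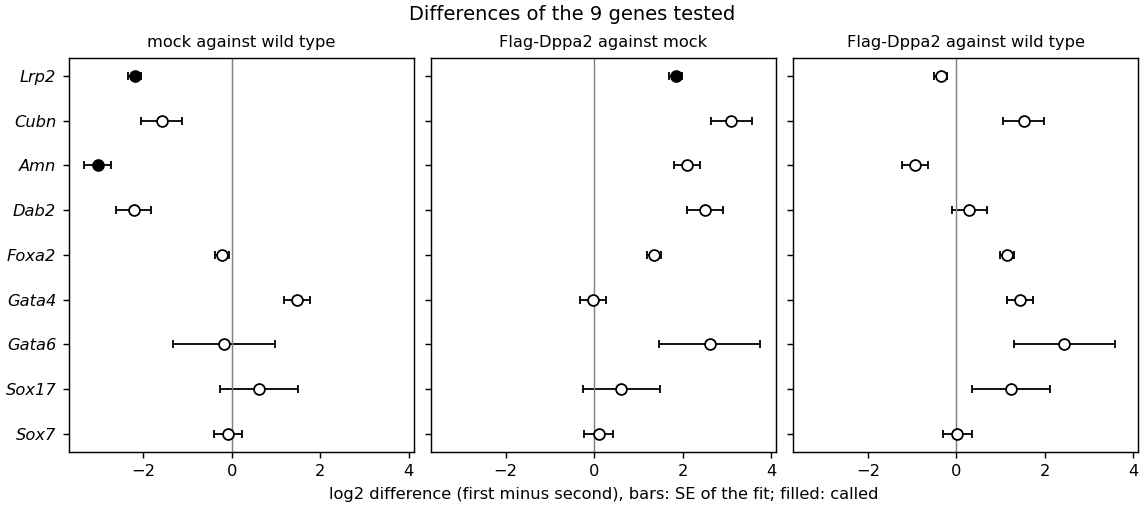
Log2 difference of each tested gene with its standard error, for mock against wild type, Flag-Dppa2 against mock and Flag-Dppa2 against wild type. Filled symbols passed limma's test, which are Lrp2 at -2.20 and Amn at -3.03 in mock against wild type and Lrp2 at 1.84 in Flag-Dppa2 against mock.

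In the order of mock against wild type, the differences ran Amn -3.03, Dab2 -2.21, Lrp2 -2.20, Cubn -1.58, Foxa2 -0.22, Gata6 -0.17, Sox7 -0.09, Sox17 0.61 and Gata4 1.47. The 4 endocytic genes lay together at the low end and the 5 transcription factors above them. Dab2 and Lrp2 next to each other did not differ beyond their standard errors, nor did Foxa2, Gata6 and Sox7. The median of the 9 was -0.22, against 0.05 for all features. It was -0.44 in line 1, -1.77 in line 2 and -0.08 with normexp correction. Mock lines lay below wild type without overlap for 5 of the 9, where 28.6% of all features did, and above it for 1, where 37.2% did. Flag-Dppa2 lines lay above mock lines without overlap for 6 of the 9, where 18.1% of all features did, and below for none, where 19.0% did. The median of Flag-Dppa2 against mock was 1.84 over the 9 genes. Flag-Dppa2 lines lay above wild type for 5 of the 9, where 33.2% of features did, and below for Amn and Lrp2, where 27.1% did. The 3 comparisons share arrays, so these counts are not independent of each other. The members were chosen with earlier results of these data known, so the counts describe them and are no independent evidence. Gata4 was among those above wild type, and it passed the filter only through the knockout arrays.

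**Figure D3:**
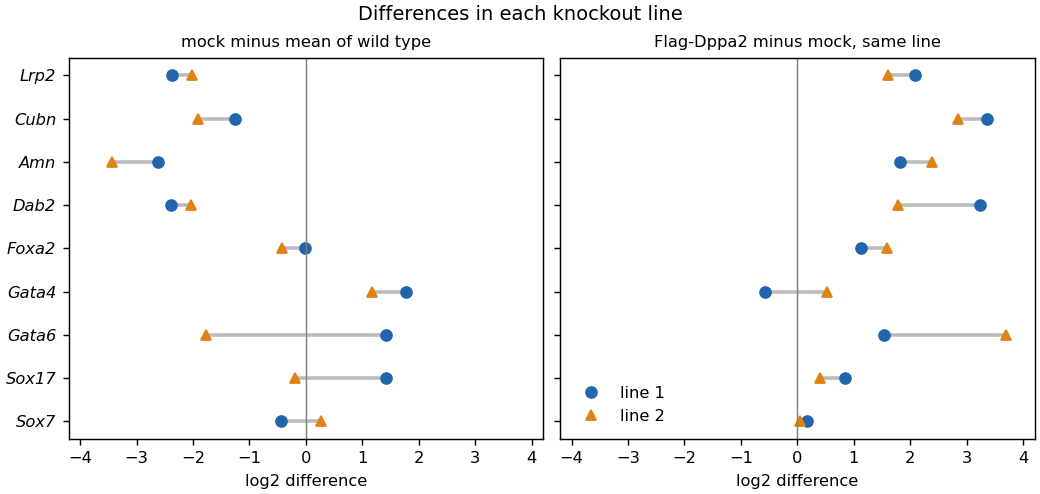
Log2 differences by knockout line, as mock minus the wild-type mean and as Flag-Dppa2 minus mock, with circles for line 1 and triangles for line 2. The 4 endocytic genes have the same sign in both lines in both differences. Gata6 in mock minus wild type has opposite signs, 1.42 and -1.77.

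Within the knockout lines, the endocytic genes were lower with the empty vector than the wild-type mean in both lines. The differences in line 1 and line 2 were -2.37 and -2.02 for Lrp2, -2.63 and -3.44 for Amn, -2.39 and -2.03 for Dab2, and -1.25 and -1.91 for Cubn. Of the transcription factors Foxa2 was also below the wild-type mean in both lines, by smaller differences of -0.02 and -0.42. The signs of Gata6, Sox17 and Sox7 differed between the lines, and Gata4 was above the wild-type mean in both. Sox17 gave 1.41 in line 1 and -0.19 in line 2, and Sox7 gave -0.44 and 0.27.

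Other genes of these lineages were given by lists. Of 19 visceral endoderm genes 10 were tested, with medians of -0.13 in mock against wild type and 0.58 in Flag-Dppa2 against mock. The first of these medians was 0.28 in line 1 and -0.89 in line 2, and 0.045 with normexp correction. The other was 0.11 in line 1 and 0.64 in line 2, and 0.26 with normexp correction. Apom, an apolipoprotein, was called lower in mock lines, 2.08-fold (log2 difference -1.05, SE 0.14, limma adjusted p = 0.0341). The replicate block ended this call (adjusted p = 0.0642). Afp, Apoa1, Apoa4, Hnf4a, Ihh and Cer1 of this list were not well above background on any array. Of 16 parietal endoderm genes 15 were tested and none was called, with medians of -0.41 and 0.31. Mock lines lay below wild type without overlap for 11 of the 15, where 28.6% of all features did, and above for 2, where 37.2% did. Krt19, a keratin, had a mock against wild type difference of -5.64 (SE 1.03, limma adjusted p = 0.0550). Its Flag-Dppa2 against mock difference was 3.84 (adjusted p = 0.246). Of 10 genes of primitive endoderm specification 8 were tested and none was called, with medians of 0.26 and -0.08. Apoa2, Rbp4, Trf and Apom, secreted carrier proteins of the visceral endoderm list, were well above background on all 6 arrays.

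Of 19 definitive endoderm genes 14 were tested, with medians of -0.47 in mock against wild type and 0.07 in Flag-Dppa2 against mock. Foxa3, a relative of Foxa2 active in gut and liver, was called higher in mock lines, 1.98-fold (log2 difference 0.99, SE 0.10, limma adjusted p = 0.0219). Lhx1, a homeobox factor of the gastrula, was called lower (log2 difference -0.84, SE 0.13, limma adjusted p = 0.0422). It was well above background on only 1 of the 2 mock arrays, so the size of this difference rests in part on a value at background. With the replicate block their adjusted p was 0.0523 and 0.070. Cer1, Mixl1 and Pdx1 were not well above background on any array.

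Among 7 relatives of the member factors 5 were tested. Sox18, the SoxF factor of endothelium, had levels of -2.05 and -1.003 in Flag-Dppa2 lines, -4.46 and -4.89 in mock lines, and -2.33 and -2.24 in wild type. Both mock arrays were below all others. It was called lower in mock lines than in wild type, 5.24-fold (log2 difference -2.39, SE 0.39, limma adjusted p = 0.0472), a call that the replicate block ended (0.0743). Flag-Dppa2 against mock was 3.15 (adjusted p = 0.07). Its SoxF relatives Sox17 and Sox7 were not called, and the difference between the 3 genes was not tested.

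Markers of other cells were counted in the same way. Of the 13 embryonic stem cell markers tested, Nr0b1 and Utf1, both factors of pluripotent cells, were called higher in mock lines than in wild type, by 0.99 and 0.87 (limma adjusted p = 0.0252 and 0.0384). Utf1 did not pass with the replicate block (0.0694). Their list had a median of 0.49 in mock against wild type. Of 8 trophectoderm markers 7 were tested, with medians of -0.80 in mock against wild type and 0.40 in Flag-Dppa2 against mock. The first of these medians was -0.89 in line 1 and 0.05 in line 2, and the other 0.57 and -0.07. Tead4, a trophectoderm factor, was called higher in mock lines, by 1.07 (adjusted p = 0.0436). None of these lists had a call in Flag-Dppa2 against mock.

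**Figure D4:**
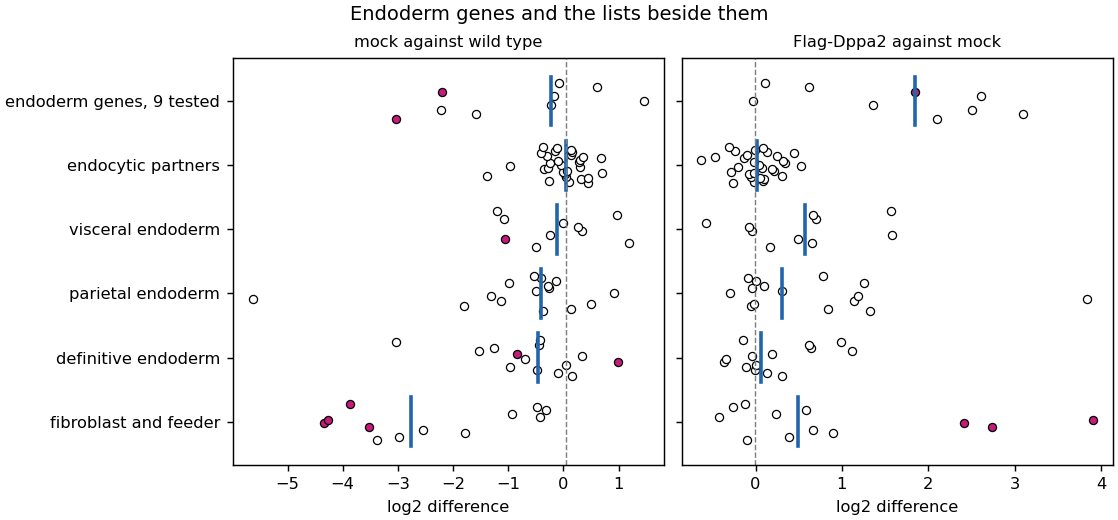
Log2 differences of the tested genes of each list, in mock against wild type and in Flag-Dppa2 against mock. Each point is a gene, pink points passed the test, blue bars are list medians and the dashed line is the median of all features. The fibroblast list has the lowest median in mock against wild type, at -2.76, and the 9 endoderm genes the highest in Flag-Dppa2 against mock, at 1.84.

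For the called members, the genes with the most similar levels were taken as those with the highest Pearson r over the 6 arrays, among 13292 other genes tested. For Lrp2 these were Arhgap4, Gstm5 and Matn3, with r of 1.000, 0.999 and 0.998. For Amn they were Rtn4rl1, Tek and Lypla1, with r of 0.998, 0.997 and 0.996. With 6 arrays in 3 groups such values describe the arrays and no more. The nearest tested genes on either side of them were not called in any of the 3 comparisons. Bbs5 is the annotated neighbour of Lrp2 on one side, and mock against wild type gave -0.01 for it (adjusted p = 0.940). Spc25 is the nearest tested gene on the other side, with 4 annotated genes between that were not tested, and gave 0.20 (adjusted p = 0.253). Traf3 and Cdc42bpb each lie 1 untested gene away from Amn and gave -0.11 (adjusted p = 0.832) and 0.51 (0.0782).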

How the data were processed

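RNA of 6 embryonic stem cell samples was hybridised in 1 colour to Agilent mouse arrays. Per the file headers, Feature Extraction 10.7.3.1 (protocol GE1_107_Sep09) gave the deposited intensity values, which are linear, background-corrected and not scaled between arrays. The log2 values of the deposited series matrix served as 1 alternative. Their column medians were 5.84 to 5.86 and they look quantile-normalized, per the values. Background correction with normexp was another. The submitters' processing notes name GeneSpring GX 11.

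Of 45018 spots 1639 controls and all flagged spots were left out, spots were averaged per probe, and 115 of 41174 probes were dropped. RefSeq accessions gave 27135 probes 1 of 18512 symbols (table of GRCm38.p6), leaving 13924 unnamed. Each array's 75th percentile was subtracted. A probe had to be well above background on 2 or more arrays, and 1 per symbol was kept (highest mean), which gave 13293 genes and 5474 unnamed probes. One limma fit (limma 3.58.1, R 4.3.3) covered all arrays, and a call needs a two-sided p, adjusted by Benjamini-Hochberg over all features, below 0.05. It was tested on simulated data. Wild-type arrays were also averaged, the replicate number blocked, and other alternatives run. Flag-Dppa2 and mock arrays of 1 number share a line, and their deviations correlated at 0.586. Wild type and mock gave -0.0358, and Flag-Dppa2 and wild type 0.0136. Members and gene lists were chosen with earlier results of these data known. Every member was named, with the called genes of each list (at most 4 per comparison), the 3 most similar genes and the neighbours of called members. The p-values of the planned fit measure the spread between arrays of a group, pooled over the 3 groups, and not the spread between lines alone. Among features well above background on every array, the median SD was 0.038 within wild type, 0.151 within mock and 0.171 within Flag-Dppa2. The wild-type pair thus lowered the pooled spread. The line shared by Flag-Dppa2 and mock arrays was left out of that fit. Tables and figures used Python 3.11.15, numpy 2.4.6, pandas 2.3.3 and matplotlib 3.10.9.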

Additional observations from a re-analysis of the deposited data

Results flagged for a closer look

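In 2 instances both lines moved in opposite directions by at least 0.5 (log2) under the same contrast, and neither difference between lines was tested. Gata6 in mock lines differed from the wild-type mean by 1.42 in line 1 and by -1.77 in line 2. Gata4 in Flag-Dppa2 against mock lines differed by -0.57 in line 1 and by 0.52 in line 2.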

How the results depend on the processing

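The number of members called in mock against wild type was 2. It was 0 with wild type averaged and 0 with only these groups and a replicate block, and it ran from 0 to 3 when 1 array was left out, with 0 without either wild-type array and 3 without either Flag-Dppa2 array. For Flag-Dppa2 against mock it was 1. It was 2 with quantile normalization and with the authors' matrix. It was 0 with no filter, with the replicate block, with wild type averaged, with only these groups, and with only these groups and a replicate block. Leaving out 1 array gave 0 to 1, with 1 only without mock replicate 2. For Flag-Dppa2 against wild type it was 0, and 1 (Foxa2) with normexp, quantile normalization and the matrix, while leaving out an array gave 0 to 0. Averaging or dropping arrays leaves fewer samples, and the cause of the other changes was not tested. The fit of only the groups compared with a replicate block, and normexp on the median signal, were chosen after seeing the data. Slide could not be fitted as a block for Flag-Dppa2.

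Of 453 alternative values of single members, 403 kept direction and side of the threshold, 12 newly passed it, 18 no longer passed it and 20 changed sign. All 18 that no longer passed were alternatives of the 3 called values, for which only 33 alternatives still passed. None of the 3 called values changed sign. The sign changes in mock against wild type were Foxa2 at 0.0021 with the matrix, Sox7 at 0.036 with quantile and 0.040 with the matrix, and Gata6 at 0.19 with normexp, 0.058 with quantile and 0.064 with the matrix. Sox7 in Flag-Dppa2 against wild type was -0.012 with normexp. Leaving out 1 array moved mock against wild type over -0.19 to 1.41 for Sox17, -0.44 to 0.27 for Sox7 and -1.77 to 1.42 for Gata6. It moved Flag-Dppa2 against mock over -0.40 to 1.64 for Sox17, -0.25 to 0.46 for Sox7 and -0.32 to 0.27 for Gata4. It moved Flag-Dppa2 against wild type over -0.27 to 0.31 for Sox7 and -0.25 to 0.84 for Dab2. The cause was not tested. Over all features, mock against wild type had 1149 calls, 464 higher and 685 lower. There were 494 with the replicate block and 1761 with an intensity trend, 663 higher and 690 lower with quantile normalization, and 384 without a filter, 42 higher and 342 lower. Flag-Dppa2 against mock had 139, with 4 under the block. Signals near background limit Ttr, Gata4 and Sox17, and in mock lines Dab2, Cubn and Gata6 as well. The Dab2 signal was 26.3 in mock line 1, where the lowest signal well above background was 24.5. Cubn and Gata6 had signals of 22.7 and 18.5 in mock line 2, where that lowest signal was 14.6.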

Other observations

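Several listed genes were above background on some knockout arrays and not on others, or differed in level between the knockout lines. They were chosen after their values were seen. Apob, the main apolipoprotein of the yolk sac, had levels of -3.77 and -4.88 in Flag-Dppa2 lines and -2.35 in mock line 1, and it was not well above background in mock line 2 or in wild type. Pdgfra, a receptor of the primitive endoderm, was above background in line 1 alone, at -2.97 with Flag-Dppa2 and -3.99 with the empty vector. Gata5 and Foxa1 were above background in mock line 1 only, at -3.46 and -4.47. T, the brachyury factor of the primitive streak, had -1.60 with Flag-Dppa2 and -3.38 with the empty vector in line 1, was not above background in line 2, and had -1.66 and -1.68 in wild type. Zfp42 (Rex1), a marker of naive pluripotency, was high in line 2 of both knockout groups, at 6.35 with Flag-Dppa2 and 6.39 with the empty vector, against 3.56 and 3.57 in line 1 and 3.57 and 3.63 in wild type. Cdx2, a trophectoderm factor, was at 0.09 with Flag-Dppa2 in line 1 and at -3.30 in line 2, against -1.59 and -3.20 with the empty vector.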
